A study of Homo sapiens with 38 samples.

Results

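The comparison described here set 16R6-4, a clone of A375 melanoma cells with acquired resistance to the BRAF inhibitor GSK436 (GSK2118436, dabrafenib), against its parental line A375 while both were in the drug. It used the arrays whose labels give 1 µM GSK436 alone for 24 h: 3 arrays of 16R6-4 and 2 arrays of A375, 5 of the 38 arrays in the study. All were one-colour Affymetrix arrays of cells grown in RPMI1640 with serum, and the A375 arrays carry the replicate numbers 2 and 3. A375 is an established human melanoma line with an activating BRAF mutation. 16R6-4 is 1 clone, so that a difference between the lines can belong to this clone as well as to resistance. Whether the arrays within a group were separate cultures is not given in the labels. The p-values rest on 1 spread per gene, pooled within groups over all 38 arrays. That spread may be technical, and it is not the spread of these 5 arrays alone. Arrays of the same lines in DMSO (2 of 16R6-4 and 3 of A375) and in 10 nM of the MEK inhibitor GSK212 (GSK1120212, trametinib; 3 of each) served to show where the difference under the drug departed from that under other conditions.

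In BRAF-mutant melanoma the mutant kinase signals through MEK to ERK, and ERK drives transcription of immediate targets such as MYC, FOSL1 and the ETS factors ETV4 and ETV5, together with its own brakes, the DUSP phosphatases and the SPRY and SPRED proteins. The levels of these transcripts are widely used as a readout of how much ERK activity remains in a treated cell. A parental line held in a BRAF inhibitor usually shuts this output down and leaves the cell cycle, while resistant lines often keep it on. Melanoma cells can also shift between a neural crest-like state marked by SOX10 and more mesenchymal states, and changes between such states accompany drug resistance in many models.

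The 2 lines differed widely in 1 µM GSK436. A difference is given throughout as 16R6-4 minus A375 on the log2 scale of signal plus 2.8, with its standard error (SE), and a gene was called where limma's adjusted p was under 0.05 and the difference at least 1 in size. Of 18063 genes, 1983 (11.0%) were called higher and 3155 (17.5%) lower in 16R6-4, 5138 (28.4%) in all. The 3 arrays of 16R6-4 lay wholly above or wholly below the 2 of A375 for 11546 genes (63.9%). In DMSO the same lines differed in 657 genes (3.64%).

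Array quality moved with the lines. The ratio of 3′ to 5′ actin probe sets, which rises as RNA degrades, was 20.5, 7.94 and 4.25 on the 16R6-4 arrays, against 23.3 and 32.6 on the A375 arrays, within a range of 3.72 to 45.0 over the study. The GAPDH ratio was 1.58, 1.22 and 1.07 in 16R6-4, against 2.40 and 3.62 in A375, and the median signal was 30.2, 25.2 and 26.0 in 16R6-4, against 44.9 and 49.8 in A375. Across genes the median difference between the lines was -0.46 with the deposited scaling and 0.29 with each array centred on its median. The share of calls that were higher in 16R6-4 was 38.6% as deposited, 49.1% after quantile normalization and 80.0% after centring. Centring adds the same amount to the difference of each gene, so that counts of genes called higher grow and counts called lower shrink by construction. The part of RNA quality in the results was not tested apart from these settings: 3730 genes were called once the log2 actin ratio entered the model, and 1652 of the 5138 calls (903 higher and 749 lower) held under every one of 12 other settings. The 2 arrays with the nearest actin ratios, 16R6-4 replicate 1 and A375 replicate 2, are the first value of each group in the sentences that follow. Their GAPDH ratios (1.58 and 2.40) and median signals (30.2 and 44.9) still differed.

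The genes highest in 16R6-4 in the drug were KISS1, F3 and FST. KISS1, the metastasis suppressor kisspeptin, had signals of 801, 886 and 771 in 16R6-4, against 8.97 and 7.43 in A375 (difference 6.22 ± 0.50, adjusted p 1.27e-11). F3, tissue factor, the initiator of coagulation, had 609, 639 and 601 in 16R6-4, against 8.46 and 10.2 in A375 (5.68 ± 0.67, adjusted p 4.06e-08). FST, follistatin, which binds and neutralises activin, had 6819, 7476 and 7392 in 16R6-4, against 130 and 190 in A375 (5.50 ± 0.27, adjusted p 5.93e-17). For all 3 genes each of the 16R6-4 arrays lay far above both A375 arrays. That the groups did not overlap was required by the choice of genes. The serpin SERPINB7 (5.22), the transcription factor MYC (4.95), the MAP kinase phosphatase DUSP1 (4.95), the stress cytokine GDF15 (4.74), the Mediator subunit MED30 (4.71), the endothelial proteoglycan ESM1 (4.70), the transmembrane collagen COL13A1 (4.66), the RNA polymerase I factor subunit TAF1A (4.64) and the protease ADAMTS1 (4.56) completed the 12 highest. Several of them differed between the A375 arrays themselves: MYC was at 63.1 and 13.8 and GDF15 at 79.6 and 15.7 in A375, against at least 861 and 931 in 16R6-4. Only 1 of 3 probe sets for DUSP1, 1 of 3 for GDF15 and 2 of 3 for COL13A1 were higher in 16R6-4, so DUSP1 and GDF15 rest on the brightest probe set alone. In A375 in 10 nM GSK212 the actin ratios were 15.4, 32.1 and 5.90. There MED30 had 68.0, 96.0 and 457, and TAF1A 66.7, 55.3 and 178. Neither gene was called in DMSO (1.21 and 0.72). With the actin covariate their differences in 1 µM GSK436 were 3.78 and 3.85, still called. The part of RNA quality in the differences of MED30 and TAF1A was not tested.

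The genes lowest in 16R6-4 were MIA, KRT14 and MGP. MIA, a secreted melanoma marker, had 8.50, 4.90 and 18.2 in 16R6-4, against 3854 and 3993 in A375 (-8.33 ± 0.52, adjusted p 3.30e-14). KRT14, a basal keratin, had 10.3, 1.08 and 6.14 in 16R6-4, against 1786 and 2191 in A375 (-8.01 ± 0.67, adjusted p 2.68e-11). MGP, matrix Gla protein, had 1.16, 7.63 and 1.18 in 16R6-4, against 1112 and 856 in A375 (-7.48 ± 0.54, adjusted p 1.03e-12). The groups did not come near each other for any of these genes, whose choice required groups that did not overlap. The 16R6-4 signals, between 1.08 and 18.2, were low enough for the added constant of 2.8 to affect the size of these differences. L1CAM, a neural adhesion molecule, had 31.6, 20.8 and 29.2 in 16R6-4, against 3118 and 4379 in A375 (-6.96 ± 0.33, adjusted p 1.91e-17), and is less exposed to it. The others of the 12 lowest were the transforming growth factor-beta target PMEPA1 (-7.17), the calcium-binding S100P (-7.00) and CAPS (-6.87), the collagen COL9A3 (-6.82), SOX10 (-6.80), C5orf46 (-6.18), IGFBP5 (-6.10), which binds insulin-like growth factors, and the receptor ERBB3 (-5.99). Of the 24 genes, 12 had more than 1 probe set, and in 9 of the 12 all probe sets went the same way.

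**Figure D1:**
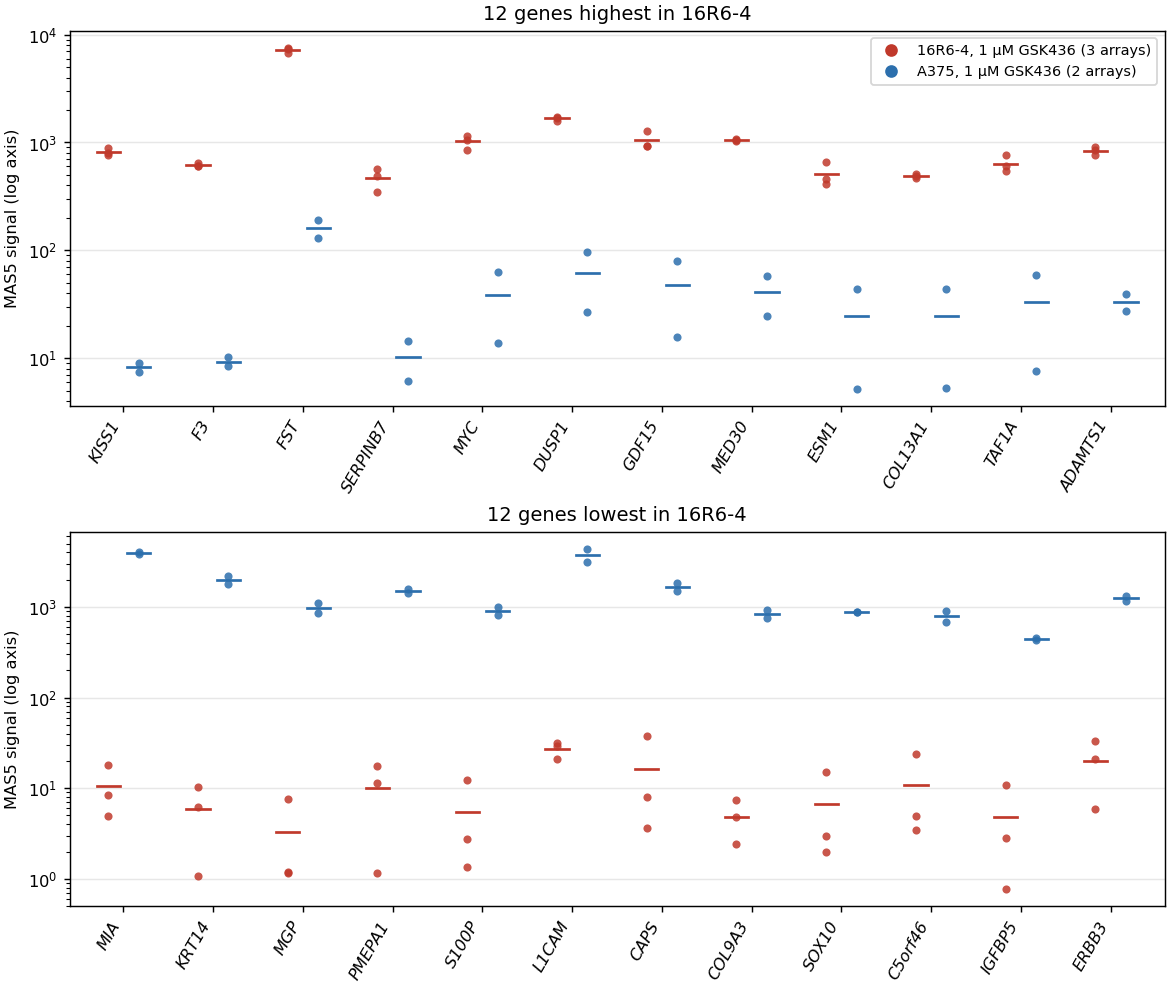
MAS5 signal (log axis) of the 12 genes highest and the 12 genes lowest in 16R6-4, on each array in 1 µM GSK436; red points are the 3 arrays of 16R6-4, blue points the 2 arrays of A375, and bars the group means. The groups are apart for all 24 genes, which the choice of genes required, and the lower genes lie between 0.77 and 37.6 in 16R6-4.

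Transcripts downstream of ERK were higher in 16R6-4. Of 21 measured ERK output genes, 13 were called higher and 0 lower, against 11.0% higher and 17.5% lower among all genes, and the median difference of the list was 1.91, against -0.46 over all genes. The summed signal of the list was 18391, 18972 and 18517 in 16R6-4, against 3845 and 4207 in A375. With the arrays centred, 16 were higher and 0 lower (median 2.65), with the actin covariate 13 and 0, and without A375 replicate 3 the counts were 12 and 0. These genes were picked for their known place in the pathway with earlier results of the series in view, so the count describes them and is not independent support for a direction.

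The feedback phosphatases and adaptors differed strongly. DUSP6, the phosphatase that removes phosphate from ERK in the cytoplasm, had signals of 1036, 1000 and 774 in 16R6-4, against 86.2 and 83.5 in A375 (3.41 ± 0.64, adjusted p 6.38e-05). DUSP5, its nuclear counterpart, had 981, 985 and 1112 in 16R6-4, against 72.2 and 46.8 in A375 (4.07 ± 0.28, adjusted p 2.53e-13). For both genes all 3 arrays of 16R6-4 lay far above both A375 arrays, while the groups did not overlap for 63.9% of all genes. DUSP4 was higher by 1.18 ± 0.26, with means of 433 in 16R6-4 and 189 in A375. SPRED2, which keeps RAF from being activated by RAS, had 497, 524 and 588 in 16R6-4, against 87.2 and 45.6 in A375 (3.03 ± 0.40, adjusted p 3.26e-07). SPRY2 (2.43 ± 0.81) and SPRED1 (1.29 ± 0.47), inhibitors of the same step, were called as well, but SPRY2 lost its call without either A375 array and SPRED1 without A375 replicate 3, without 16R6-4 replicate 2 or 3 and with the actin covariate. For SPRED1, 2 of 3 probe sets were higher in 16R6-4. SPRY4 differed by 2.21 ± 0.98 without being called (adjusted p 0.0713), and SPRY1 by 0.29 ± 0.58.

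Transcription factors and other growth genes of the list split into 2 kinds. MYC had 861, 1065 and 1150 in 16R6-4, against 63.1 and 13.8 in A375 (4.95 ± 0.69, adjusted p 7.53e-07). ETV5 had 825, 776 and 663 in 16R6-4, against 42.1 and 80.9 in A375 (3.62 ± 0.64, adjusted p 3.00e-05). FOSL1, a partner of JUN in AP-1, had 2275, 2217 and 1513 in 16R6-4, against 428 and 638 in A375 (1.91 ± 0.33, adjusted p 1.80e-05). For these 3 genes the groups did not overlap, as was so for 63.9% of all genes. HMGA2, a chromatin protein, differed by 2.84 ± 0.23, EPHA2, an ephrin receptor, by 3.36 ± 0.54 and PHLDA1 by 2.40 ± 0.28. For HMGA2, 6 of 8 probe sets were higher in 16R6-4. CCND1, cyclin D1, differed less, with 1828, 1712 and 1666 in 16R6-4, against 652 and 999.7 in A375 (1.10 ± 0.33, adjusted p 0.00876), and its call was lost without A375 replicate 2 and after quantile normalization. The fast immediate-early genes FOS (-0.90 ± 0.96) and EGR1 (0.78 ± 0.67) were dim in both lines and not called: EGR1 had 47.6, 28.5 and 34.8 in 16R6-4, against 56.3 and 5.97 in A375. ETV4 (1.10 ± 0.69), IER3 (0.72 ± 0.20), ETV1 (-0.43 ± 0.62) and EPHA4 (-0.81 ± 0.83) were not called either, the difference for IER3 being under the size required.

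**Figure D2:**
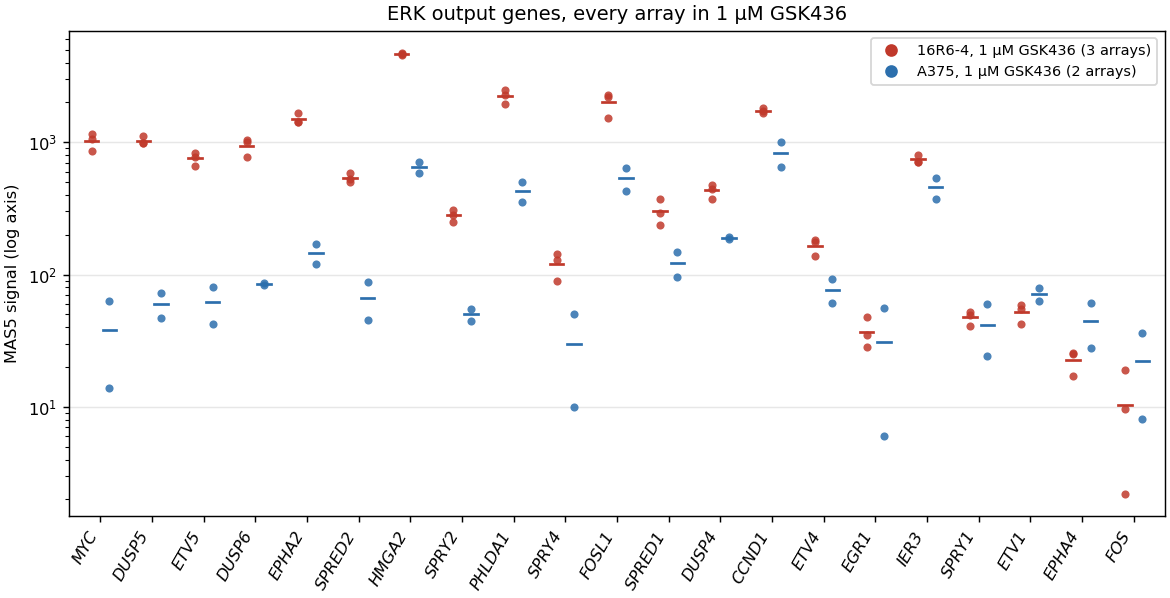
MAS5 signal (log axis) of the 21 measured ERK output genes on each array in 1 µM GSK436, ordered by the difference between the lines; red points are the 3 arrays of 16R6-4, blue points the 2 arrays of A375, and bars the group means. From MYC to FOSL1 the groups are apart, and at the right end FOS, EGR1 and SPRY1 overlap.

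The kinases of the cascade differed in both directions. Of 10 measured genes of the RAS-RAF-MEK-ERK pathway, 1 was called higher and 4 lower, 2 and 2 after centring and 1 and 2 with the actin covariate, against 11.0% higher and 17.5% lower among all genes. MAP2K1, which encodes MEK1, had 710, 752 and 783 in 16R6-4, against 187 and 112 in A375 (2.35 ± 0.36, adjusted p 3.10e-06). MAP2K2, which encodes MEK2, had 458, 454 and 316 in 16R6-4, against 1527 and 1949 in A375 (-2.09 ± 0.34, adjusted p 7.29e-06), and MAPK3, which encodes ERK1, had 155, 123 and 93.0 in 16R6-4, against 592 and 930 in A375 (-2.59 ± 0.28, adjusted p 8.06e-09). The MEK genes thus differed in opposite directions under the drug, while in DMSO neither was called (0.18 for MAP2K1 and -0.28 for MAP2K2). All 3 calls held with centring and with the actin covariate, in contrast to ARAF (-1.20 ± 0.29) and HRAS (means of 406 in 16R6-4 and 809.7 in A375), which lost theirs under both. The second probe set of ARAF went the other way (1.70). In A375 in 10 nM GSK212 the actin ratios of replicates 1, 2 and 3 were 15.4, 32.1 and 5.90. On those arrays MAP2K1 had 213, 276 and 473, MAP2K2 1505, 1347 and 655, and MAPK3 540, 710 and 315. The part of RNA quality in the differences of these 3 genes was not tested. The scaffold KSR1 (-0.14), the adaptor GRB2 (-0.09), the exchange factor SOS1 (0.42), the RAS inhibitor NF1 (-1.17 ± 0.72) and the kinase MAP3K8 (0.51) were not called, and the other 5 genes of the list were not analysed here.

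Cell cycle genes were higher in 16R6-4 too. Of 20 DNA replication genes, 12 were called higher and 0 lower (median 1.21). Of 21 mitosis genes 11 were higher and 0 lower (median 1.01), against 11.0% and 17.5% among all genes. At an unadjusted p under 0.05 in limma, 0 genes of these lists and 0 of the ERK output list were lower. In bulk RNA a smaller share of cycling cells and less RNA per cell cannot be told apart. CDK1, the mitotic kinase, had 2191, 2201 and 2766 in 16R6-4, against 393 and 326 in A375 (2.72 ± 0.40, adjusted p 2.01e-06). CDC45, a subunit of the replicative helicase, had 330, 327 and 319 in 16R6-4, against 69.8 and 54.6 in A375 (2.34 ± 0.46, adjusted p 0.000103). The spread within either line was small beside the gap for both genes. MAD2L1 of the spindle checkpoint (2.70 ± 0.34), the mitotic motor CENPE (2.12 ± 0.32), the clamp loader RFC3 (2.29 ± 0.23), the helicase subunits MCM2 (1.87 ± 0.30) and MCM4 (1.73 ± 0.17) and TYMS, thymidylate synthase (1.80 ± 0.22), were called with the deposited scaling, after centring and with the actin covariate. On the A375 arrays in 10 nM GSK212, with actin ratios of 15.4, 32.1 and 5.90, CDK1 had 447, 411 and 1002. There MAD2L1 had 516, 406 and 974 and TYMS 2135, 2193 and 3318, but CDC45 63.1, 95.7 and 32.8 and MCM2 610, 442 and 455. The part of RNA quality in the cell cycle differences was not tested.

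Regulators of the restriction point differed in both directions. CCNE2, cyclin E2, had 552, 582 and 552 in 16R6-4, against 145 and 134 in A375 (1.99 ± 0.27, adjusted p 5.96e-07), and CCND3, CDK6 and RB1 were higher by 1.54, 1.44 and 1.56, although 1 of 2 probe sets of CCND3, 1 of 7 of CDK6 and 1 of 2 of RB1 went the other way. CDKN1A, the inhibitor p21, had 445, 559 and 520 in 16R6-4, against 1411 and 1628 in A375 (-1.58 ± 0.18, adjusted p 1.68e-08); centred, the difference was -0.83 and no longer called. CDKN1C, the inhibitor p57, had 23.0, 2.62 and 5.43 in 16R6-4, against 370 and 447 in A375 (-5.29 ± 0.76, adjusted p 1.26e-06). Of the 14 genes of this list 5 were called higher and 2 lower, against 11.0% and 17.5% among all genes. Ribosome biogenesis had 6 of 14 called higher and 0 lower, among them the helicase DDX21, with 5683, 5607 and 5668 in 16R6-4, against 1496 and 874 in A375 (2.30 ± 0.24, adjusted p 3.14e-09).

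Genes of the integrated stress response, in which phosphorylated eIF2-alpha lets ATF4 be translated and ATF4 then switches on amino acid synthesis and import, were lower in 16R6-4 with the deposited scaling. Of 21 genes 7 were called lower and 2 higher (median -0.91), and of 17 amino acid transporters and tRNA synthetases 9 were lower and 0 higher (median -1.15), against 17.5% lower among all genes. With the arrays centred the counts were 2 lower and 4 higher (median -0.16) and 2 lower and 3 higher (median -0.41). With the actin covariate they were 5 lower and 1 higher, and 5 lower and 0 higher. Both medians lay below that of all genes, -0.46 as deposited and 0.29 centred. Centring adds the same amount to each gene, so that this gap could not change and is not a second observation.

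NUPR1, a stress-induced chromatin protein, PHGDH, the first enzyme of serine synthesis, and WARS1, tryptophanyl-tRNA synthetase, were lower with every one of these scalings. NUPR1 had 584, 488 and 499 in 16R6-4, against 1726 and 1899 in A375 (-1.79 ± 0.24, adjusted p 3.90e-07). PHGDH had 1117, 1294 and 1163 in 16R6-4, against 4410 and 4984 in A375 (-1.98 ± 0.22, adjusted p 1.10e-08). WARS1 had 1246, 1104 and 965 in 16R6-4, against 4734 and 5594 in A375 (-2.22 ± 0.27, adjusted p 4.85e-08). Both A375 arrays lay above all 3 of 16R6-4 for each of these genes, while the groups did not overlap for 63.9% of all genes. In DMSO both lines were far lower for NUPR1, with means of 112 in 16R6-4 and 32.7 in A375, the reverse order. From DMSO to 1 µM GSK436 NUPR1 rose by 2.22 in 16R6-4 and 5.74 in A375, and PHGDH by 1.19 and 2.30. DDIT4, another gene of the list, rose by 1.96 in 16R6-4 and 1.41 in A375. Each of these changes was called, so 16R6-4 raised these genes in the drug too. SLC3A2, the heavy chain of the large neutral amino acid transporter, differed by -1.80 ± 0.18 and DDIT3, the factor CHOP, by -1.21 ± 0.20. The hormone gene STC2 went the other way (2.51 ± 0.63).

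CHAC1, which degrades glutathione, had 135, 150 and 121 in 16R6-4, against 422 and 556 in A375 (-1.83 ± 0.70, adjusted p 0.0369). That call was lost without any one of the 5 arrays, after centring and with the actin covariate. ASNS, asparagine synthetase, named here after its values were seen, had 2724, 2829 and 2862 in 16R6-4, against 5297 and 5231 in A375, a difference of -0.91 ± 0.15 that fell short of the size required (adjusted p 1.55e-05). Both genes carry in the promoter the core of the element that ATF4 binds in amino acid response genes, TGATGNAA searched on both strands. It occurs in 3.67% of 27305 RefSeq promoters (250 bases before to 50 after the start, GRCh38.p14). Of the 17 stress response genes with a promoter entry 4 hold it (ATF3, ASNS, FGF21 and CHAC1). Only 1 of the 6 called members with an entry, CHAC1, is among them. The promoters of CHAC1 (chr15:40953221-40953520, plus strand) and ASNS (chr7:97872359-97872658, minus strand) are shown because they hold this element in a called and in an uncalled gene of the list, with the element in capitals, reverse complemented in CHAC1.
CHAC1: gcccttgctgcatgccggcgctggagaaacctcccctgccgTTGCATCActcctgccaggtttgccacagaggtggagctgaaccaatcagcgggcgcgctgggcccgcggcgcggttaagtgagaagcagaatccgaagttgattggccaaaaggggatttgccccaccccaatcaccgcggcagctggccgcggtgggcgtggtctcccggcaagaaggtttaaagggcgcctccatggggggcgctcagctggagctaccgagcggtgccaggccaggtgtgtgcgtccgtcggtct
ASNS: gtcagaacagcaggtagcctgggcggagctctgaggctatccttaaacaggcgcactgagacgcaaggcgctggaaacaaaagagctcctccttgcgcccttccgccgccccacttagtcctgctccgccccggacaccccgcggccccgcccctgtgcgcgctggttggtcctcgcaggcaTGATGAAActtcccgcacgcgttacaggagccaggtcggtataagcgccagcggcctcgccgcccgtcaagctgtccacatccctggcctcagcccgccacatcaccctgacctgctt
The element begins 209 bases before the start in CHAC1 and 68 bases before it in ASNS. A match describes these letters and does not show binding. The ETS motif CCGGAAGT, searched in the same way for the ERK output genes, was present in 4.44% of promoters and in 0 of the 12 members with an entry, so no promoter of that list is shown.

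Chaperones of the endoplasmic reticulum, another arm of protein stress, did not go with the ATF4 genes. Of 12 measured, 4 were called higher and 0 lower in 16R6-4 (median 0.50), against 11.0% higher and 17.5% lower among all genes. PDIA6, a disulfide isomerase, had 3261, 3683 and 3708 in 16R6-4, against 1317 and 1108 in A375 (1.55 ± 0.25, adjusted p 5.79e-06), and DNAJB11, a co-chaperone, differed by 1.65 ± 0.31. Both were called with the actin covariate too. XBP1, the transcription factor of this response, was higher by 1.72 ± 0.39, but its second probe set was lower (-1.84). Within A375 in 10 nM GSK212, where the actin ratios were 15.4, 32.1 and 5.90, PDIA6 had 1923, 2284 and 3290. On those arrays DNAJB11 had 540, 535 and 937, and XBP1 111, 135 and 298. The part of RNA quality in the contrast with the ATF4 genes was not tested.

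Neural crest genes were low in 16R6-4 in the drug. Of 18 genes, 10 were called lower and 1 higher (median -2.17), 8 and 2 after centring, against 17.5% and 11.0% among all genes. The summed signal of the list was 1707, 1526 and 1582 in 16R6-4, against 8565 and 8955 in A375. SOX10, the lineage factor of neural crest and melanocytes, had 1.96, 15.1 and 2.94 in 16R6-4, against 879 and 871 in A375 (-6.80 ± 0.58, adjusted p 4.62e-11). ERBB3, a receptor under SOX10 control in this lineage, had 33.0, 5.97 and 21.2 in 16R6-4, against 1170 and 1326 in A375 (-5.99 ± 0.54, adjusted p 1.48e-10). FOXD3, an early neural crest factor, had 0.91, 2.52 and 1.08 in 16R6-4, against 85.9 and 101 in A375 (-4.50 ± 0.71, adjusted p 5.35e-06). For SOX10 the gap was as large in DMSO (-6.65), whereas FOXD3 was dim in both lines there, with means of 8.37 in 16R6-4 and 9.10 in A375. NGFR (-3.68 ± 0.57) and the glial calcium sensor S100B (-3.80 ± 0.76) were lower too, and the single gene called higher, the mesenchymal factor ZEB1, differed by 1.87 ± 0.28.

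MITF, the master factor of pigment cells, went against SOX10. It had 1076, 1041 and 968 in 16R6-4, against 326 and 304 in A375 (1.70 ± 0.22, adjusted p 2.61e-07), and its difference in DMSO was 1.73. Of 16 genes of the pigmentation list 2 were called higher, MITF itself and the kinase CDK2, and 2 lower, the receptor MC1R and the transport gene RAB27A, shares near those over all genes (11.0% higher and 17.5% lower). RAB27A differed by -0.46 after centring and was then not called, and 2 of its 5 probe sets and 1 of 3 of CDK2 went the other way. The melanocyte markers MLANA, TYR and PMEL were at or below 59.0 on all 5 arrays. These pigment markers of the labelled melanoma type were thus low in both lines, while SOX10, MIA and ERBB3 were high in A375 and near the added constant or dim in 16R6-4.

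Antigen presentation genes of MHC class II were lower in 16R6-4. Of 11 genes 7 were called lower and 0 higher (median -2.25), against 17.5% and 11.0% among all genes. The lower count was 6 after centring and 7 with the actin covariate, and 0 were higher at an unadjusted p under 0.05 in limma. CD74, the invariant chain, had 51.3, 35.1 and 26.1 in 16R6-4, against 699 and 703 in A375 (-4.17 ± 0.30, adjusted p 6.38e-13). HLA-DRA, the shared chain of the DR molecules, had 4.61, 1.09 and 4.01 in 16R6-4, against 138 and 54.6 in A375 (-3.95 ± 0.75, adjusted p 7.88e-05). In both genes the highest 16R6-4 array was below the lowest A375 array, while the groups did not overlap for 63.9% of all genes. HLA-DPA1 differed less, with 263, 276 and 281 in 16R6-4, against 1038 and 1112 in A375 (-1.96 ± 0.19). Probe sets for HLA-DRB1 (-4.21) and HLA-DRB4 (-5.63) can cross-hybridise between the DRB genes, so these 2 are not separate observations.

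Class I genes and interferon targets were called lower more often than higher with the deposited scaling. Their medians were -1.01 and -1.05, against -0.46 over all genes. After centring they were -0.27 and -0.30, against 0.29, a gap that centring leaves unchanged by construction. Of 15 class I genes 8 were called lower and 1 higher (17.5% and 11.0% among all genes), 1 and 3 after centring and 7 and 1 with the actin covariate. TAPBP, tapasin, which loads peptides, had 106, 135 and 108 in 16R6-4, against 452 and 533 in A375 (-2.06 ± 0.29, adjusted p 9.77e-07), and HLA-C differed by -1.51 ± 0.14. TAP2, a peptide transporter subunit, was the gene called higher (2.58 ± 0.35), with 116 and 22.4 in A375 and 1 of 3 probe sets the other way. Of 21 interferon response genes 8 were called lower and 1 higher, 4 and 3 after centring and 8 and 0 with the actin covariate. ISG15, a ubiquitin-like interferon product, had 179, 192 and 133 in 16R6-4, against 631 and 744 in A375 (-2.02 ± 0.20, adjusted p 7.58e-10). IRF9, a subunit of the interferon-activated factor, had 81.8, 44.6 and 38.9 in 16R6-4, against 313 and 378 in A375 (-2.65 ± 0.29, adjusted p 1.02e-08). The inflammatory cytokines had 2 of 17 called in each direction (11.0% higher and 17.5% lower among all genes), and 8 higher and 1 lower after centring: CSF1 (1.81) and IL24 (1.76) were higher and IL1B (-2.49) and IL1A (-2.53) lower, IL1A without a stable call when arrays were left out. Only 1 of 3 probe sets of CSF1 was higher.

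Receptors and ligands differed in both directions. Of 25 receptor tyrosine kinases and ligands 6 were called higher and 6 lower, 8 and 2 after centring, against 11.0% higher and 17.5% lower among all genes. Higher in 16R6-4 were the ligands HBEGF, with 898, 1038 and 1021 in 16R6-4, against 116 and 134 in A375 (2.95 ± 0.44, adjusted p 2.28e-06), FGF2 (2.42 ± 0.54) and KITLG (2.40 ± 0.37), and the receptor EPHA2. MET, the receptor for hepatocyte growth factor, lies outside the rule for named genes and was chosen after its values were seen: it had 3203, 3193 and 3095 in 16R6-4, against 726 and 496 in A375 (2.39 ± 0.29, adjusted p 6.55e-08). The receptors ERBB3 and FGFR3 were lower, FGFR3 with 30.2, 6.03 and 31.1 in 16R6-4, against 409 and 572 in A375 (-4.50 ± 0.54, adjusted p 5.65e-08). A probe set of HBEGF and one of KITLG went against the others.

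Activin and BMP signalling, the matrix and its proteases differed in both directions as well. In the list of 24 TGF-beta, activin and BMP genes 5 were called higher and 9 lower, 6 and 3 after centring, against 11.0% and 17.5% among all genes. Besides FST, FSTL1, a secreted relative of it, had 1164, 1251 and 1037 in 16R6-4, against 137 and 175 in A375 (2.87 ± 0.20, adjusted p 3.79e-13). For FSTL1, 2 of 3 probe sets were higher in 16R6-4. The BMP target ID2 had 116, 90.0 and 90.8 in 16R6-4, against 766 and 747 in A375 (-2.91 ± 0.26, adjusted p 8.92e-11), and PMEPA1 was among the lowest genes of all. BMP4 itself was higher in 16R6-4 (2.48 ± 0.55), with A375 signals of 3.49 and 8.01. Of 25 matrix genes 12 were called lower and 5 higher (5 and 6 after centring). The fibrillar collagens COL5A1, with 36.0, 32.7 and 40.2 in 16R6-4, against 308 and 345 in A375 (-3.08 ± 0.29, adjusted p 4.81e-10), and COL1A1 (-2.84 ± 0.42) were among the lower ones.

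Of 14 proteases and inhibitors 3 were called higher and 4 lower (3 and 1 after centring), against 11.0% and 17.5% among all genes. PLAUR, the urokinase receptor, had 1565, 1792 and 1562 in 16R6-4, against 173 and 206 in A375 (3.10 ± 0.19, adjusted p 1.19e-14), and the stromelysin MMP3 differed by 1.85 ± 0.32. The gelatinase MMP2 had 270, 241 and 226 in 16R6-4, against 2148 and 2842 in A375 (-3.32 ± 0.28, adjusted p 4.61e-11), although its second probe set showed 0.22.

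Survival, metabolism and lysosome lists each held a few strong members. In the BCL2 family, BMF, a BH3-only killer, had 31.2, 13.7 and 5.21 in 16R6-4, against 275 and 203 in A375 (-3.86 ± 0.70, adjusted p 4.14e-05). PMAIP1, the BH3-only protein NOXA, had 1433, 1403 and 1667 in 16R6-4, against 417 and 351.1 in A375 (1.96 ± 0.24, adjusted p 8.01e-08). These BH3-only genes thus differed in opposite directions. The list as a whole had 3 of 14 called in each direction (5 higher and 1 lower after centring), against 11.0% higher and 17.5% lower among all genes. Among 25 glycolysis genes 4 were called higher and 8 lower (9 and 4 after centring), against the same 11.0% and 17.5%. HK2, hexokinase 2, had 1700, 1597 and 1253 in 16R6-4, against 324 and 292 in A375 (2.28 ± 0.22, adjusted p 6.35e-10), while SLC2A12, a glucose transporter, had 4.68, 17.4 and 13.1 in 16R6-4, against 372 and 476 in A375 (-4.98 ± 0.49, adjusted p 9.46e-10). TXNIP, a brake on glucose uptake, differed by -1.82 ± 0.24.

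Of 16 lysosome and autophagy genes 5 were called lower and 1 higher (4 and 3 after centring), against 17.5% and 11.0% among all genes. TFEB, the transcription factor of lysosome genes, had 4.41, 22.7 and 7.57 in 16R6-4, against 170 and 209 in A375 (-3.95 ± 0.71, adjusted p 3.66e-05), and the protease CTSD differed by -2.62 ± 0.38. Among 10 cholesterol synthesis genes SQLE, squalene epoxidase, was higher by 3.14 ± 0.46. The p53 targets had 3 of 14 called in each direction (4 higher and 1 lower after centring, and 11.0% higher and 17.5% lower among all genes), with TP53INP1 lowest (-4.21 ± 0.46) and GDF15 highest.

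Of the markers of other cell types none was called higher in 16R6-4 in limma with the deposited scaling, 2 epithelial ones being higher at an unadjusted p under 0.05. After centring 2 epithelial markers were called higher and 5 lower. Of 11 epithelial markers 5 were called lower, against 17.5% of all genes called lower and 28.4% called either way. Besides KRT14, CD24, a surface glycoprotein, had 67.8, 89.6 and 73.0 in 16R6-4, against 1910 and 1560 in A375 (-4.45 ± 0.19, adjusted p 3.14e-18), and KRT13 (-4.96 ± 0.80), CLDN4 (-3.46 ± 0.78) and SFN (-2.07 ± 0.33) went with it. The simple keratins KRT8 and KRT18, which passed no size threshold, were at 476 or more in 16R6-4 and 348 or more in A375, while the epithelial adhesion genes CDH1 and EPCAM stayed at or under 39.9 on every array. Leukocyte markers (1 of 10 called, GZMB) had summed signals of 310, 217 and 266 in 16R6-4, against 420 and 526 in A375, with PTPRC at 25.2, 9.65 and 27.2 in 16R6-4, against 52.8 and 53.01 in A375. Fibroblast and endothelial markers (1 of 9 called, ACTA2) had sums of 251.2, 193 and 233 in 16R6-4, against 362 and 609 in A375.

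**Figure D3:**
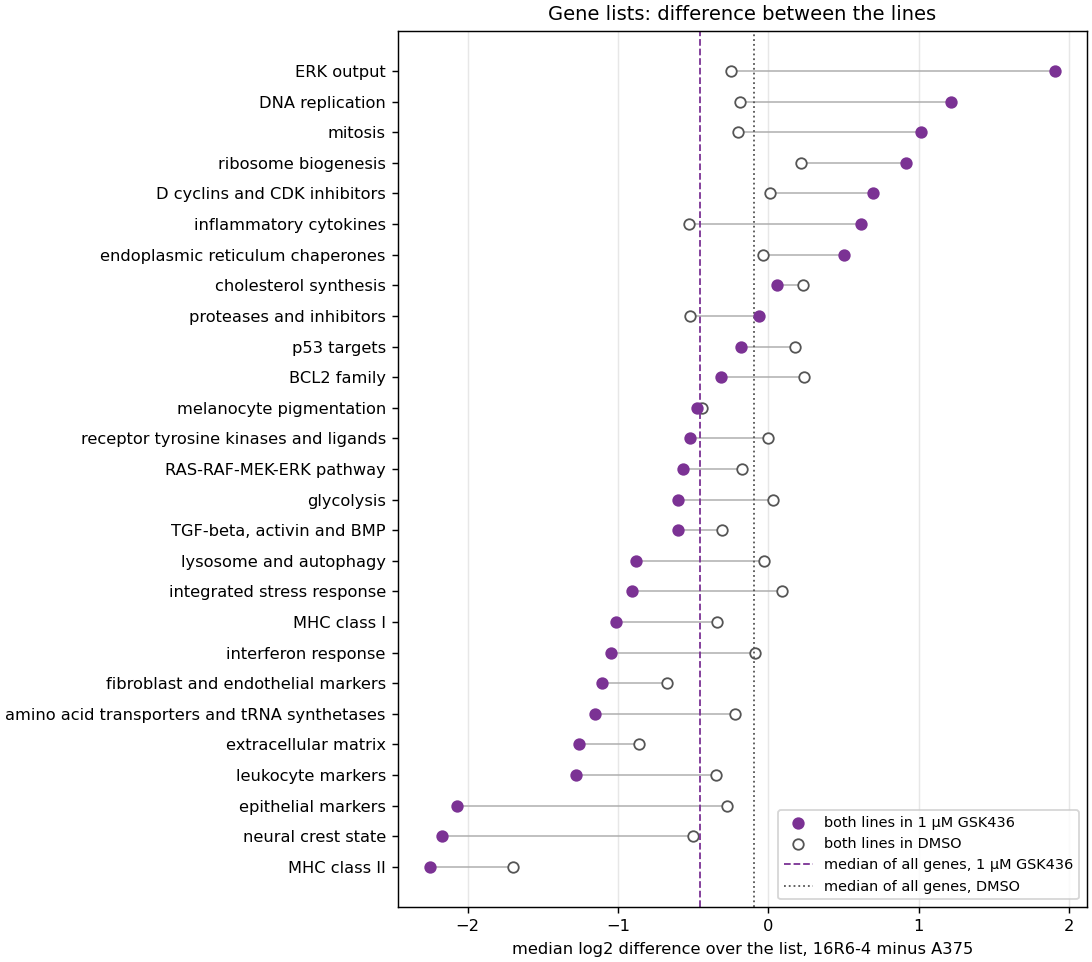
Median log2 difference, 16R6-4 minus A375, over the measured genes of each of the 27 lists, with both lines in 1 µM GSK436 (filled) and in DMSO (open); dashed and dotted vertical lines are the medians over all 18063 genes, -0.46 and -0.10. ERK output, DNA replication and mitosis lie to the right in the drug only, and MHC class II lies to the left in both.

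How much of this separated the lines before the drug was asked by comparing the difference in 1 µM GSK436 with that in DMSO, which share no arrays. Of the 657 genes called in DMSO, 453 (68.9%) were called in the same direction in the drug, 173 higher and 280 lower, and 11 in the opposite one. They made up 8.82% of the 5138 calls in the drug. Across genes the 2 differences correlated with r of 0.414 (18063 genes, which are not independent). KISS1 (6.22 in the drug, 5.93 in DMSO), SOX10 (-6.80 and -6.65), COL9A3 (-6.82 and -6.68), CD74 (-4.17 and -4.44) and MITF (1.70 and 1.73) had about the same difference in both, and for none of these 5 was the change called.

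The change of the difference was tested in the same fit, drug minus DMSO. It was called higher for 986 genes (5.46%) and lower for 995 (5.51%), a split of 733 and 341 after centring, and 863 of the first and 872 of the second were also called in that direction in the drug. The ERK output list had 13 of 21 genes called higher, with a median of 2.09, and DNA replication and mitosis had 13 each called higher. DUSP6 moved most of the 21: its means in DMSO were 1620 in 16R6-4 and 2506 in A375, and its difference was larger by 4.04 in the drug. MYC moved by 3.02, and DUSP5, already higher in 16R6-4 in DMSO (2.27), by 1.80. The MHC class II genes showed 0 called changes of 11 (1 at an unadjusted p under 0.05 in limma), and the neural crest list 1 higher and 2 lower, FOXD3 (-4.41) among them. In the stress response list 5 of 21 moved down, NUPR1 the most clearly (-3.52). A further 3026 genes were called in the drug but neither in DMSO nor in the change, so they cannot be assigned to either.

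**Figure D4:**
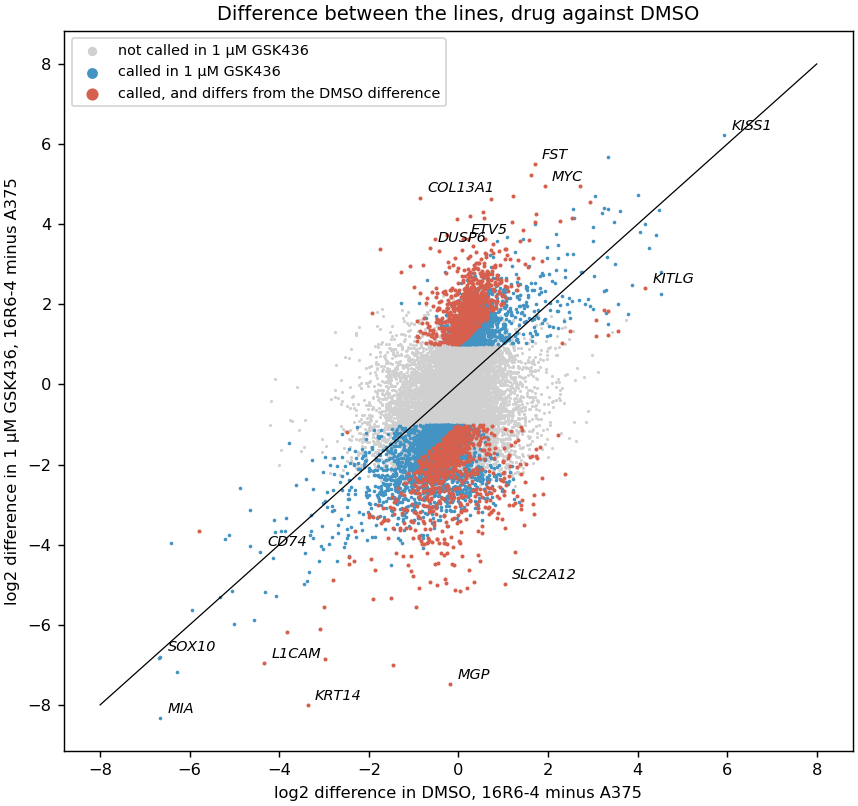
Log2 difference, 16R6-4 minus A375, in 1 µM GSK436 (vertical) against that in DMSO (horizontal), 1 point per gene for 18063 genes; blue points are called in the drug, red points are called and also differ from the DMSO difference, and the line marks equality. KISS1, SOX10, CD74 and MIA lie near the line, and COL13A1, DUSP6, ETV5, MGP and SLC2A12 far from it.

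In 10 nM GSK212, which blocks MEK in both lines, the lines differed in 2104 genes (11.6%). Of these, 1634 (77.7%) were called the same way in 1 µM GSK436, where they were 31.8% of the calls, and 8 the opposite way (r over genes 0.588). The difference between the drugs was called for 215 genes (1.19%), 67 higher and 148 lower (35 and 17 after centring), including 4 of the 21 ERK output genes, all higher in GSK436. Over the 7 treatments of the study the median difference of the ERK output list was -0.25 in DMSO, 2.37 in 0.1 µM and 1.91 in 1 µM GSK436, 0.75 in 10 nM and 0.07 in 30 nM GSK212, and 0.32 and -0.06 in 10 nM GSK212 with 0.1 or 1 µM GSK436. It was thus large under the BRAF inhibitor alone and closer to that of DMSO where the higher GSK212 dose or both drugs were present. The median of the amino acid list was -1.15 in 1 µM GSK436 and between -0.35 and 0.20 in the other 6 treatments. That of the stress response list was -0.91 against -0.29 to 0.41. Over all genes the median was -0.46 in 1 µM GSK436 and between -0.34 and -0.07 in the other 6. In 0.1 µM GSK436 the medians of these lists (-0.30 and -0.29) lay close to that of all genes (-0.34). The part of array quality in these contrasts was not tested.

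The same direction was called in all 7 treatments for 233 genes (1.29%), 91 higher and 142 lower in 16R6-4. KISS1 differed by 4.91 to 7.12, SOX10 by -7.50 to -6.38, MIA by -8.33 to -6.11 and CD74 by -4.44 to -2.00 over the treatments. These genes set the lines apart with or without either drug.

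**Figure D5:**
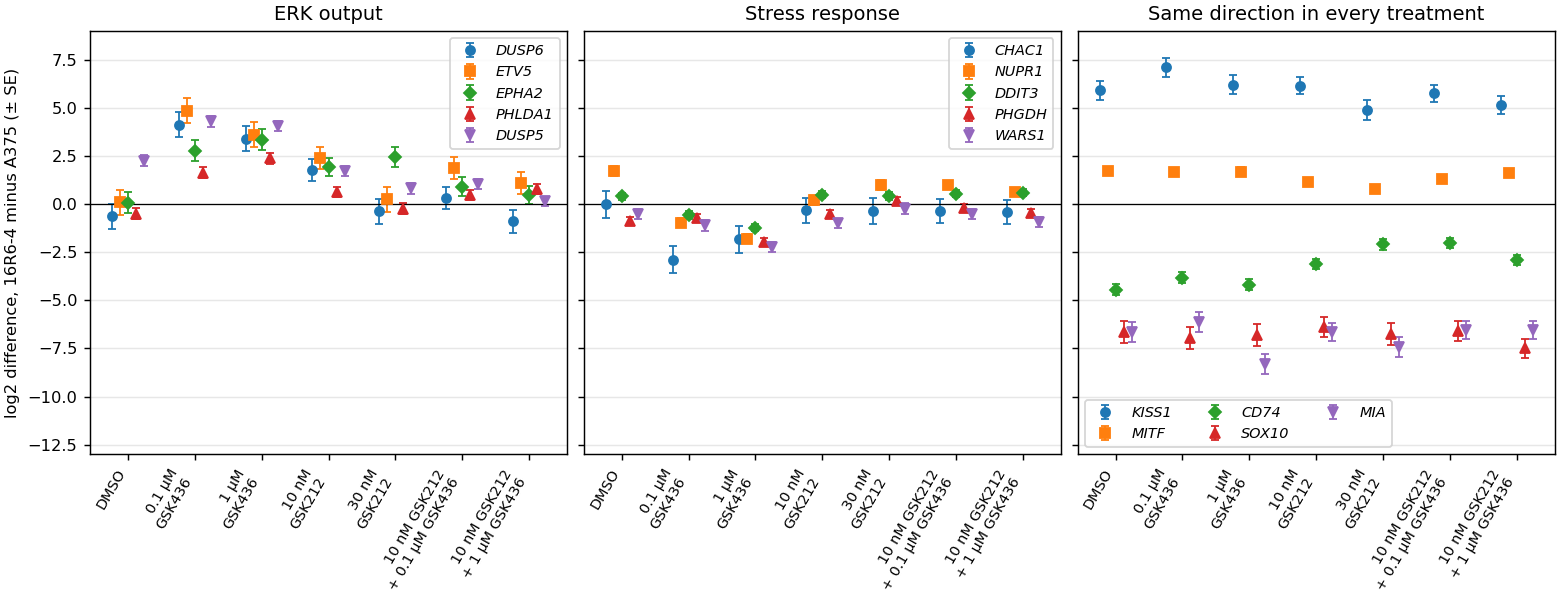
Log2 difference, 16R6-4 minus A375, with its SE (bars) in each of the 7 treatments for 5 ERK output genes, 5 stress response genes and 5 genes with 1 direction throughout. The ERK output genes are highest in GSK436 alone, each stress gene is lowest in 0.1 or 1 µM GSK436 alone, and KISS1, SOX10, MIA and CD74 keep their side in every treatment.

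By chromosome, the calls were uneven. On chromosome 15, 5.05% of 574 genes were called higher and 21.8% lower, and the median difference was -0.69 in the drug and -0.48 in DMSO, where 0 genes were higher and 41 lower. Chromosome 20 had a median of -0.77 in the drug and -0.41 in DMSO. Chromosome 3 had the highest share of genes called higher, 18.1% of 1023, and chromosome 18 the highest median, 0.01. Chromosome 19, with a median of -0.73 in the drug, was at -0.09 in DMSO. DNA copy number was not analysed here.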

How the data were processed

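Each array came as a deposited table of linear signal intensities for 54675 probe sets. The authors computed them with MAS5, according to the submitters' processing notes, with no version given. Groups, doses and replicate numbers came from the labels, and 0 columns were left unmatched. The comparisons and gene lists were chosen with earlier results of these data known. Probe sets naming 1 gene in the platform annotation of 2016 were used (41097, of which 41043 matched RefSeq, GRCh38.p14), and those naming several (1801) or none (11777) were left out. Probe sets above 34.88, the pooled median, on at least 2 arrays were kept (35888), and the brightest stood for each of 18063 genes.

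Before log2 was taken, 2.8 (the 10th percentile of the signals) was added. With limma 3.58.1 in R 4.3.3, 1 model of 14 group means covered all 38 arrays and left 24 residual degrees of freedom (eBayes with trend). Benjamini-Hochberg adjustment ran over all genes of each comparison, and calls needed an adjusted p under 0.05 and a log2 difference of at least 1 in size. Of 496 members of the 27 lists, 445 were tested. The named genes were the first 12 called in each direction with arrays apart, all genes of the ERK output and RAS-RAF-MEK-ERK lists, up to 6 called members of each other list, and the first 6 in each direction of either change of the difference. The text describes some of them, chosen with their values known. The labels tie no arrays together by replicate number, and with 2 shared numbers the deviations cannot settle whether they pair, so the fit had no replicate block. The number of arrays limits the precision. Tables were handled with pandas 2.3.3 and drawn with matplotlib 3.10.9 under Python 3.11.15. Alternatives were quantile normalization, median centring, other pseudocounts and filters, the mean of all probe sets, eBayes without trend, only the groups compared, the replicate block, the actin covariate, array weights and leaving out each array.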

Additional observations from a re-analysis of the deposited data

Results flagged for a closer look

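The difference between the lines changed from DMSO to 1 µM GSK436 for 1981 genes, by the test of that change in limma. It moved up most for COL13A1 (5.53), with signals of 490, 471 and 506 in 16R6-4 and 5.28 and 43.9 in A375 in the drug, against means of 623 in 16R6-4 and 1136 in A375 in DMSO. Next came the clock factor NPAS2 (5.13), the growth factor TGFA (4.22), the integrin ITGA2 (4.16), the phosphatase PTPN12 (4.14) and the receptor NRP1 (4.09). TGFA differed by 0.13 ± 0.32 in the drug, which was not called, and by -4.08 in DMSO. In NRP1 1 of 4 probe sets was higher in 16R6-4 in the drug, in PTPN12 1 of 2 and in NPAS2 4 of 5. It moved down most for MGP (-7.30), SLC2A12 (-6.02), S100P (-5.54), NFATC4 (-5.46), SAMD11 (-5.29) and the alkaline phosphatase ALPP (-5.29).

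The difference between the lines in 1 µM GSK436 departed from that in 10 nM GSK212 for 215 genes. It was higher in GSK436 for NPAS2 (4.30), ZBTB14 (3.84), ESM1 (3.77), MANEA (3.66), ITGA2 (3.65) and LOC221946 (3.64). In ZBTB14 1 of 2 probe sets was higher in 16R6-4 in GSK436. It was lower for MEGF6 (-5.41), CDKL2 (-5.14), CSN1S1 (-5.08), CARD14 (-4.73), MYO1D (-4.72) and LINC01558 (-4.63). MEGF6, a secreted protein with EGF-like repeats, had 2.56, 1.77 and 2.66 in 16R6-4 and 98.3 and 157 in A375 in 1 µM GSK436, against means of 247 in 16R6-4 and 153 in A375 in GSK212. ALPP had 1.40, 1.24 and 1.97 in 16R6-4 and 161 and 104 in A375 in 1 µM GSK436, against means of 185 in 16R6-4 and 252 in A375 in GSK212. CDKL2, CSN1S1, CARD14 and LINC01558 were dim, at or under 73.4 on each of the 5 arrays.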

How the results depend on the processing

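The 5138 calls in 1 µM GSK436 became 3730 to 5366 under the 12 settings that kept all arrays and 3629 to 5100 when an array was left out, lowest without A375 replicate 3, which kept 66.2% of the calls; centring kept 58.5%. The change from DMSO (1981 genes) was called for 1074 after centring, 1229 with the mean of all probe sets and 3421 with array weights. Leaving out single arrays gave 782 to 2707, with 894 without A375 replicate 3 in the drug, 782 without 16R6-4 replicate 1 in DMSO and 1260 without A375 replicate 2 in DMSO. The difference from GSK212 (215 genes) was called for 52 after centring, 141 with the mean of all probe sets, 128 with only the groups compared, 126 with the actin covariate and 574 with array weights. Single arrays took it to 61 to 487, lowest without A375 replicate 3 in 1 µM GSK436 and highest without A375 replicate 1 in GSK212. It was 132 and 131 without 16R6-4 replicate 2 or 3 in GSK436, 135 and 115 without 16R6-4 replicate 1 or 3 in GSK212, and 84 without A375 replicate 3 in GSK212. With the replicate block the 3 counts were 5339, 2198 and 279. Signs turned for ETV1 with the stricter filter (2.21, adjusted p 0.0208) and, with the mean of all probe sets, for ARAF (0.25), XBP1 (-0.062) and NRP1 (-0.56). The causes were not tested. The log2 differences of genes near the constant of 2.8 in one line are limited by it. With 2 arrays in A375, 1 array decides many of the calls in this group.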
